A study of Mus musculus with 79 samples.

Results

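The 34 genes described here are the osteoblast and osteocyte genes of the vertebra: genes that bone-forming cells use to build and mineralise bone, and genes of the osteocytes that these cells become once they are buried in it. They were taken by symbol from the 39063 genes of the deposited tables, and each of the 34 was among the 14873 genes tested. By role they comprised 8 matrix genes (Col1a1, Col1a2, Col24a1, Col22a1, Sparc, Postn, Cthrc1 and Omd), 8 mineralisation genes (Alpl, Phospho1, Smpd3, Ifitm5, Bglap, Bglap2, Ibsp and Spp1), 6 osteocyte genes (Dmp1, Phex, Mepe, Sost, Fgf23 and Pdpn), 4 transcription factors (Runx2, Sp7, Dlx5 and Creb3l1) and 8 genes of signalling and resorption (Tnfsf11, Tnfrsf11b, Mmp13, Bmp8a, Notum, Dkk1, Wnt16 and Pth1r).

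Osteoblasts arise from marrow stromal and periosteal progenitors under the transcription factors Runx2 and Sp7 (osterix). They secrete type I collagen, load it with non-collagenous proteins and mineralise it by releasing phosphate near the fibrils. Osteocytes then control the surrounding bone through secreted factors: sclerostin (Sost) and Dkk1 restrain Wnt signalling, RANKL (Tnfsf11) starts osteoclast formation and Fgf23 acts on the kidney to lower serum phosphate. In the tail, bone lies beside a marrow rich in adipocytes.

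RNA-seq was done on caudal vertebrae (CV, tail bones with adipocyte-rich marrow), lumbar vertebrae (LV, with haematopoietic marrow) and inguinal white adipose tissue (iWAT). The 51 mice were on a mixed SJLxC57BL6 background, with ages given as 4 to 5 months in the series description. The published legends give an older upper limit for the RNA-seq mice, and an older range for the males of the insulin experiment. Ages of single mice are not listed, so a difference in age between insulin mice and the others was not tested. Mice received PBS or leptin at 100 ng per hour into the cerebral ventricles (ICV) for 9 days, with pair feeding. WT mice were BMAd-Pnpla2+/+, and cKO mice were BMAd-Pnpla2-/-, in which the lipase ATGL is lost in bone marrow adipocytes; the Cre driver is not given in the sources used here. Further WT males received subcutaneous insulin with PBS or with leptin. The 51 CV libraries were 5 PBS and 5 leptin WT females, 4 and 4 cKO females, 5 and 8 WT males, 5 and 4 cKO males, and 5 PBS and 6 leptin WT males with insulin. The 18 LV libraries came from the same 18 females (WT 5 and 5, cKO 4 and 4), and the 10 iWAT libraries from WT females, 5 with PBS and 5 with leptin.

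CV libraries held 16100377 to 19364106 counts and LV libraries 28717516 to 29757254. The Y-linked gene Ddx3y was at 22.3 to 38.0 TPM in the 33 male libraries and at most 0.01 TPM in the 46 female ones. The targeted gene Pnpla2 had a median of 166.1 TPM in CV of cKO females against 253.1 TPM in WT females, and of 178.3 TPM in cKO males against 282.4 TPM in WT males, with overlapping ranges in whole vertebra. The WT male median is over all 24 CV libraries of WT males, those with insulin included, whereas no cKO male received insulin. Mouse numbers in the labels fell in the 100s and 600s in WT and in these 2 ranges and the 5000s in cKO, whereas insulin mice came from the 300s and 400s alone, so insulin and number range cannot be told apart. The insulin mice numbered in the 400s all received leptin, so leptin and number range are partly mixed among insulin mice. The same holds in cKO mice, where the only female of the 600s received PBS and the males of the 600s all received leptin. In the male cKO group, the 3 mice numbered in the 100s stood apart, as described with the genotype comparison. The p-values measure the spread between mice within groups.

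The 34 genes made up 0.63 to 4.32% of the summed transcript level (TPM, a length-scaled share of all transcripts) in CV, 0.33 to 1.08% in LV and 0.0685 to 0.274% in iWAT. As a check of the label, iWAT held little of some members: Mepe and Dkk1 were listed at 0 TPM in each of the 10 libraries, and the highest value there was 0.36 TPM for Bglap (osteocalcin), 0.50 TPM for Ibsp (bone sialoprotein), 0.25 TPM for Dmp1 and 0.17 TPM for Sp7. Other members were well represented in fat. Smpd3 had a median of 14.5 TPM in iWAT against 7.84 TPM in CV and 8.80 TPM in LV. The iWAT medians of Postn (111 TPM), Pth1r (48.0), Phospho1 (19.7), Alpl (19.1) and Cthrc1 (9.96) were also far from 0. Sparc reached 1558 TPM in iWAT, Col1a1 343 TPM, and Pdpn (podoplanin, an early osteocyte and lymphatic gene) had a higher median in iWAT, 22.6 TPM, than in CV, 18.6 TPM. In iWAT of WT females, 2 of the 34 members had PBS and leptin groups that did not overlap, both lower with leptin, against 14.3% of all genes lower without overlap. They were Sparc, at 1316 to 1558 TPM with PBS and 291 to 608 TPM with leptin, and Pth1r, at 63.4 to 123 TPM and 11.9 to 32.6 TPM.

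On the TPM scale, which is per transcript length, the highest CV medians were those of Spp1 (osteopontin) at 4040, Sparc at 2680, Col1a2 at 1800 and Col1a1 at 931 TPM. Ibsp at 623, Bglap at 588, Bglap2 at 351 and Mmp13 (collagenase 3) at 220 TPM followed. Fgf23 was the lowest at 1.58 TPM, with Col24a1 at 2.21 and Tnfsf11 at 4.93 TPM just above it. The spread between mice of 1 group was not alike among the members: the pooled within-group SD of log2(TPM + 1) in CV was 0.25 for Runx2 and for Pth1r (the parathyroid hormone receptor), 0.29 for Sost and for Spp1, 0.74 for Col1a1 and 0.87 for Bglap. A log2 difference of 1 size is therefore less precisely measured for Col1a1 and Bglap than for Runx2.

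Promoter sequences are shown for Mmp13, the member called in most leptin comparisons, and for Bglap and Ibsp, the classical mineralisation genes. They are the 200 bases before the RefSeq start on GRCm38.p6, written 5′ to 3′ on the gene's strand, with capitals marking matches to ACCACA (a Runx core), TGACTCA (AP-1) or TATAAA, each on either strand.
Mmp13, chr9:7272314-7272513, plus strand: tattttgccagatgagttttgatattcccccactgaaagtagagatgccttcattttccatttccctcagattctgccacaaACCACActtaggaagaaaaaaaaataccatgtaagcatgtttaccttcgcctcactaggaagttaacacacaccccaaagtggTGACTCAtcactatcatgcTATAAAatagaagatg
Bglap, chr3:88384467-88384666, minus strand: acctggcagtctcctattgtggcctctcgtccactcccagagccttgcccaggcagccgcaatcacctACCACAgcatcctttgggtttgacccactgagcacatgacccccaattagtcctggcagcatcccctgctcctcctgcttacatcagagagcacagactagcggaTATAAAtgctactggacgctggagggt
Ibsp, chr5:104299087-104299286, plus strand: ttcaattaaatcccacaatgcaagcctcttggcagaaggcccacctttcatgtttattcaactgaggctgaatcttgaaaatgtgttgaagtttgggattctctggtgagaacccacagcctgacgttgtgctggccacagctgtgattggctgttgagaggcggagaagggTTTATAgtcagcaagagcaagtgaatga
In Mmp13 the Runx match began 118 bases before the start, the AP-1 match 35 and the TATA match 16. In Bglap the Runx match began at 132 and the TATA match at 27 bases, and in Ibsp the TATA letters lay at 28 bases, on the other strand. Over the 250 bases before the start, with promoters found for 24 of the 34 members, the Runx letters (ACCACA or TGTGGT) were present in 7 members (Bglap, Spp1, Dmp1, Mepe, Runx2, Mmp13 and Dkk1) and in 14.0% of all 32851 promoter windows. The AP-1 letters (TGACTCA or TGAGTCA) were in Phospho1 and Mmp13, that is 2 members, against 4.46% of windows, and the TATA letters (TATAAA or TTTATA) were in 9 members against 12.4% of windows. A member was counted if any of its promoter windows matched, whereas the shares are per window, so counts and shares are in unlike units. A match describes letters and not a bound site.

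The osteocalcin genes share sequence. The transcript of Bglap was identical to that of Bglap2 at 98.6% of 440 aligned bases, and 56.3% of its 100-base windows occurred unchanged in Bglap2, so reads of 100 bases can be split between the copies and values of either gene are uncertain in that respect.

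Leptin in CV was first tested as the average of the 4 strata (each sex with each genotype, without insulin). Differentially expressed genes (DEGs) were those with an adjusted p under 0.05 whose log2 fold change was 0.5 or more in size. In this average, 1 of the 34 members was a DEG, against 5.49% of all genes (3.27% higher and the rest lower). It was Mmp13, the collagenase of osteoblasts, hypertrophic chondrocytes and osteocytes, with a log2 fold change of 0.58 ± 0.12 (SE), adjusted p = 0.000423. Postn (periostin, a periosteal matrix protein) at 0.33 ± 0.12 (SE), adjusted p = 0.0455, and Tnfrsf11b (osteoprotegerin, the RANKL decoy receptor) at -0.24 ± 0.09 (SE), adjusted p = 0.0316, passed the p-value and not the fold. Of the 34, 18 had a positive and 16 a negative fold change, with a median of 0.02 against 0.003 for all genes.

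Within the strata, most called members were found in WT females, and the differences between strata were tested separately. In WT females, 14 of the 34 members were DEGs with leptin, 13 higher and 1 lower, against 5.54% of all genes (2.99% higher). The median log2 fold change of the 34 was 0.54 against -0.008 for all tested genes. By role, 4 of 8 matrix genes, 5 of 8 mineralisation genes, 3 of 4 transcription factors and 1 of 8 signalling and resorption genes rose. None of the 6 osteocyte genes rose and 1 fell. Groups of PBS and leptin mice did not overlap in TPM for Alpl, Phospho1, Smpd3 and Creb3l1, which were higher with leptin, and for Fgf23, which was lower. For comparison, 3.81% of all genes had leptin values that all lay above the PBS values. The share of genes with all leptin values below was not counted, so the lack of overlap in Fgf23 has no such comparison.

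Among the matrix genes, Col1a1, the main chain of type I collagen, stood at 931, 1400.0, 2025, 2436 and 3541 TPM in the 5 WT females with PBS and at 3163, 5051, 6991, 7194 and 10063 TPM in the 5 with leptin. The lowest leptin mouse lay below the highest PBS mouse, and the other 4 lay above all PBS mice. Its log2 fold change was 1.66 ± 0.44 (SE), adjusted p = 0.0103. The partner chain Col1a2 rose by 1.41 ± 0.38 (SE), adjusted p = 0.0135 on the log2 scale. Its values were 1669, 2329, 2991, 4486 and 5807 TPM with PBS and 4426, 7229.8, 9824, 11084 and 12959.6 TPM with leptin. Col22a1, a minor collagen of tissue junctions, was at 20.4, 24.5, 33.1, 42.4 and 45.6 TPM with PBS and at 33.2, 57.9, 74.9, 83.8 and 109.7 TPM with leptin. These ranges overlapped, and the log2 fold change was 1.12 ± 0.35 (SE), adjusted p = 0.0326. Cthrc1, a secreted protein of matrix-forming cells, rose by 1.33 ± 0.43 (SE), adjusted p = 0.0395 on the same scale. Sparc (osteonectin, a collagen-binding protein) had a log2 fold change of 0.72 ± 0.25 (SE), adjusted p = 0.0535. Postn at 0.57, Col24a1 at 0.48 and Omd (osteomodulin) at -0.21 were also not DEGs.

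The mineralisation genes that rose include the enzymes that free phosphate. Alpl, the tissue non-specific alkaline phosphatase, went from 72.0, 81.1, 125, 147 and 161.5 TPM with PBS to 165.7, 174, 206, 249.6 and 259 TPM with leptin, with a log2 fold change of 0.83 ± 0.20 (SE), adjusted p = 0.00454. Phospho1, which releases phosphate inside matrix vesicles, was at 77.0, 79.5, 83.4, 91.7 and 97.8 TPM and 114, 139, 148, 175.9 and 241 TPM, a log2 fold change of 0.92 ± 0.18 (SE), adjusted p = 0.000654. Smpd3, a neutral sphingomyelinase needed for mineralisation, was at 8.14, 9.44, 14.8, 19.3 and 24.1 TPM and 25.1, 37.0, 41.5, 41.9 and 70.3 TPM, a log2 fold change of 1.52 ± 0.37 (SE), adjusted p = 0.00559. In each of these 3 genes every leptin mouse lay above every PBS mouse. Ifitm5, a membrane protein of mineralising osteoblasts, was at 18.3, 22.6, 35.2, 52.3 and 64.7 TPM with PBS and 51.3, 83.7, 90.6, 98.1 and 155 TPM with leptin, and rose by 1.29 ± 0.35 (SE), adjusted p = 0.012 on the log2 scale with overlapping groups. Ibsp rose by 0.77 ± 0.25 (SE), adjusted p = 0.0364. Bglap had as large a log2 fold change, 1.33 ± 0.50 (SE), adjusted p = 0.0768, without passing the test. Its values were 725, 1074, 1291, 1458 and 1459.9 TPM with PBS and 739.6, 1592, 3289, 3622 and 5972 TPM with leptin, so 1 leptin mouse lay among the PBS mice. Bglap2 at 0.97 ± 0.40 (SE), adjusted p = 0.112, and Spp1 at 0.03 ± 0.17 (SE), adjusted p = 0.943, did not pass.

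Of the transcription factors, Sp7, which commits progenitors to the osteoblast line, was at 26.2, 28.5, 33.6, 46.6 and 48.6 TPM with PBS and 48.2, 67.1, 69.5, 83.2 and 99.3 TPM with leptin. Its log2 fold change was 0.99 ± 0.22 (SE), adjusted p = 0.00209, and the lowest leptin mouse lay just under the highest PBS mouse. Creb3l1 (OASIS), a stress-sensing factor that drives collagen synthesis and secretion, was at 23.5, 31.7, 37.2, 38.1 and 49.7 TPM and 54.6, 70.3, 71.1, 85.7 and 104 TPM, with no overlap and a log2 fold change of 1.08 ± 0.21 (SE), adjusted p = 0.000629. Dlx5, a homeobox factor upstream of osterix, rose by 0.55 ± 0.14 (SE), adjusted p = 0.00881 on the log2 scale, from 19.4, 21.8, 25.5, 33.7 and 34.2 TPM to 24.7, 35.6, 40.4, 44.9 and 56.7 TPM. Runx2 was at 16.7, 18.6, 20.1, 25.7 and 26.9 TPM with PBS and 21.8, 26.6, 29.5, 31.9 and 37.4 TPM with leptin. Its log2 fold change of 0.43 ± 0.14 (SE), adjusted p = 0.0376 passed the p-value and fell short of the fold.

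Of the osteocyte genes, 1 was called. Fgf23 was at 3.21, 3.28, 3.54, 5.11 and 5.78 TPM in WT females with PBS and at 0.79, 1.04, 1.06, 1.48 and 2.63 TPM with leptin. Every leptin mouse lay below every PBS mouse, and the log2 fold change was -1.66 ± 0.40 (SE), adjusted p = 0.00587. Dmp1, a matrix phosphoprotein of early osteocytes whose loss raises Fgf23, was at 90.7, 91.3, 99.4, 107 and 109 TPM with PBS and 32.7, 58.8, 87.6, 90.1 and 147 TPM with leptin, a log2 fold change of -0.28 ± 0.33 (SE), adjusted p = 0.645. Sost was at 67.4, 78.0, 78.5, 84.1 and 98.0 TPM and 50.95, 54.0, 84.3, 86.4 and 101 TPM, a log2 fold change of -0.14 ± 0.17 (SE), adjusted p = 0.656. The groups overlapped for both genes. Phex, the endopeptidase of phosphate balance, at 0.53 ± 0.22 (SE), adjusted p = 0.113, Mepe at -0.15 and Pdpn at 0.02 did not pass either.

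Mouse number ranges were looked at within the WT females (100s: 2 leptin, 3 PBS; 600s: 3 leptin, 2 PBS). The DEGs were chosen from these same mice, so values within the ranges are a description and no independent evidence. For Col1a1 the mean difference in log2(TPM + 1) within the 100s was 1.77 and within the 600s 1.28, and for Fgf23 these were -1.48 and -0.75. The added 1 shrinks differences of genes at a few TPM, such as Fgf23, so these values are not on the scale of the fold changes above. The count rested partly on single mice. Leaving out WT female PBS replicate 1 or replicate 2 reduced it from 14 to 7 (Col1a1, Alpl, Phospho1, Smpd3, Fgf23, Sp7 and Creb3l1 in both cases).

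Other genes of bone formation moved in the same stratum. Of 18 collagen processing genes, 5 rose: the chaperones and modifying enzymes Fkbp10 (0.82), Serpinh1 (0.71), P3h1 (0.70) and Plod2 (0.63), and the procollagen proteinase Bmp1 (0.75), all as log2 fold changes. Of 12 other bone matrix genes, 3 rose (Tnc 1.06, Bglap3 0.99 and Col5a2 0.94), of 10 other osteogenic factors 2 rose (Dlx3 1.00 among them), and of 19 Wnt pathway genes 2 rose (Sfrp2 1.09 and Tcf7 0.75). None of 6 genes of phosphate and mineral transport was a DEG there. No gene of these 5 lists fell.

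Markers of other cells moved beside these genes. Of 10 osteoclast markers, 6 rose with leptin in WT females, among them Dcstamp (1.82 ± 0.37 (SE), adjusted p = 0.00121) and Ctsk (1.22 ± 0.35 (SE), adjusted p = 0.0182), with a list median of 1.24. The summed osteoclast TPM was 1120 to 3360 with PBS and 2110 to 6660 with leptin. Adipocyte markers fell in 3 of 9 cases (Plin1, Adipoq and Lpl), and their sum was 9140 to 12900 TPM with PBS and 5370 to 10300 TPM with leptin. Of chondrocyte, muscle, and tendon and fibroblast markers, 1 each fell (of 10, 10 and 7), and the chondrocyte sum was 867 to 2030 TPM with PBS and 457 to 1100 TPM with leptin. The muscle sum was 23700 to 51200 TPM (median 48200) with PBS and 18600 to 44100 TPM (median 20400) with leptin. Alas2, 1 of 6 erythroid markers, rose. None of 8 neutrophil, 8 B cell, 5 marrow stromal or 3 keratinocyte markers was called. The part of these cells in the change of the bone genes was not tested. In whole vertebrae, more osteoblasts, more RNA per osteoblast and a smaller share of other tissues in the sample cannot be told apart.

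**Figure D1:**
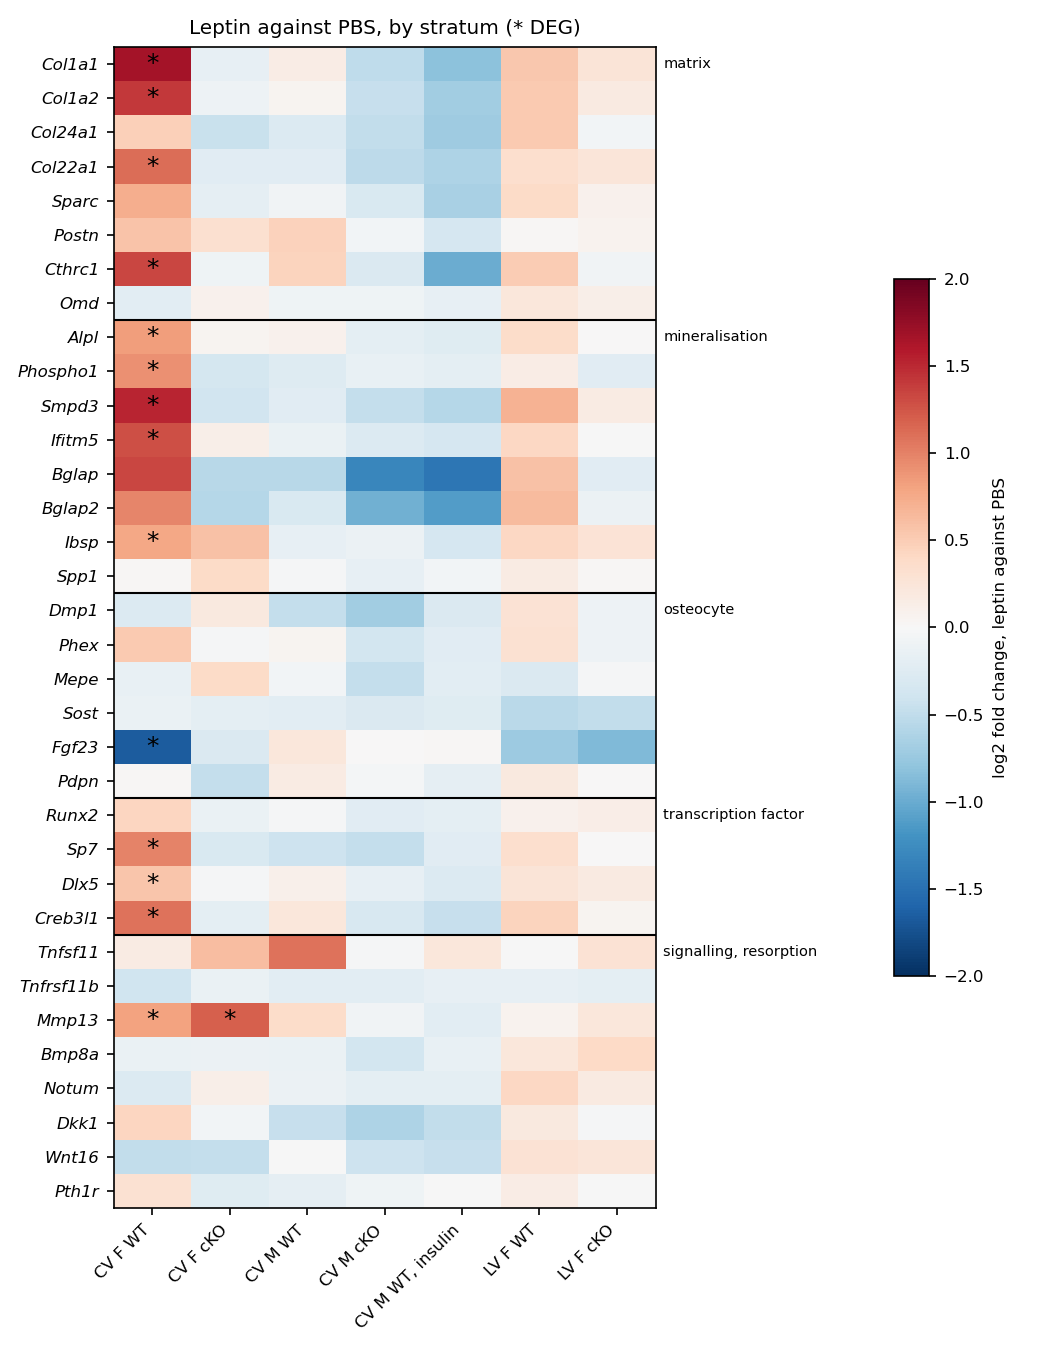
Log2 fold change of leptin against PBS for the 34 genes (rows, grouped by role) in 7 strata (columns), with red for higher, blue for lower and a star for a DEG. The stars lie in WT female CV, 14 in all, apart from Mmp13 in cKO female CV; in CV of cKO males all cells are blue or near white, and Fgf23 is blue in both LV columns.

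In cKO females, 1 of the 34 members was a DEG with leptin, against 3.41% of all genes, and the median of the 34 was -0.12. It was Mmp13, at 155, 281, 419 and 454.1 TPM with PBS and 429, 577, 680.2 and 1249 TPM with leptin. Only the lowest leptin mouse lay within the PBS range, and the log2 fold change was 1.20 ± 0.27 (SE), adjusted p = 0.00654. In WT females Mmp13 was at 179, 197, 220.4, 269 and 313 TPM and 307, 373.9, 399, 414 and 607 TPM, a log2 fold change of 0.81 ± 0.24 (SE), adjusted p = 0.0239, whereas it was 0.37 ± 0.22 (SE), adjusted p = 0.348, in WT males and -0.07 ± 0.25 (SE), adjusted p = 0.985, in cKO males. Without cKO female leptin replicate 1 or cKO female PBS replicate 4, Mmp13 was no longer a DEG in cKO females, and the call was also lost when this stratum was fitted alone. That PBS mouse was the only cKO female numbered in the 600s. Within the number ranges, the mean difference of Mmp13 in log2(TPM + 1) was 0.85 in the 100s (3 leptin, 2 PBS) and 0.61 in the 5000s (1 leptin, 1 PBS). Without cKO female leptin replicate 1 or cKO male leptin replicate 1, the average over the strata held 0 called members.

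No matrix gene was called in cKO females. Col1a1 was at 3099, 3115, 4809 and 7804 TPM with PBS and 2807, 3134, 3662 and 6794 TPM with leptin, overlapping ranges with a log2 fold change of -0.17 ± 0.48 (SE), adjusted p = 0.875. Each of its PBS values lay above 4 of the 5 WT PBS values. Sp7 was at 50.6, 51.6, 51.8 and 70.9 TPM and 26.1, 40.2, 43.8 and 68.1 TPM, a log2 fold change of -0.30 ± 0.24 (SE), adjusted p = 0.496, and Fgf23 at 1.08, 3.41, 3.81 and 5.60 TPM and 1.28, 1.80, 3.22 and 4.30 TPM, a log2 fold change of -0.29 ± 0.43 (SE), adjusted p = 0.74. The difference between genotypes in the leptin response was itself tested, as the average over the sexes. None of the 34 members and 0.0% of all genes passed. The members with the smallest p were Creb3l1 at -0.91 ± 0.21 (SE), adjusted p = 0.503, and Phospho1 at -0.58 ± 0.18 (SE), adjusted p = 0.591; 16 members (47.1%) had an unadjusted p below 0.05, against 7.21% of all genes. A p that misses the threshold does not show that the genotypes responded alike.

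In WT males, none of the 34 members was a DEG with leptin (4 members, and 20.3% of all genes, at an unadjusted p below 0.05), against 2.81% of all genes, and the median was -0.08. Col1a1 was at 218, 596, 675, 717 and 922 TPM in the 5 PBS mice and 498 to 1276 TPM with a median of 549 in the 8 leptin mice. Sp7 was at 15.3, 18.3, 20.2, 21.1 and 22.7 TPM with PBS and 12.1 to 22.4 TPM with a median of 13.6 with leptin, with overlap and a log2 fold change of -0.41 ± 0.20 (SE), adjusted p = 0.228. The largest fold change belonged to Tnfsf11, RANKL, at 1.09 ± 0.36 (SE), adjusted p = 0.0659. Its 5 PBS mice were at 3.13, 3.39, 3.59, 3.84 and 4.93 TPM and the 8 leptin mice at 3.43 to 22.2 TPM with a median of 4.87. The 3 highest values (7.98, 14.0 and 22.2 TPM) were those of the 3 leptin mice numbered in the 600s. The mean difference in log2(TPM + 1) was 1.70 within the 600s and 0.11 within the 100s. DESeq2 called this gene (adjusted p = 0.0286), as did edgeR without any 1 of 5 libraries (WT male leptin replicates 1, 2, 4 and 5, and leptin with insulin replicate 6).

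The difference between the sexes in the leptin response of WT mice gave no called member with edgeR, against 0.00672% of all genes, while 18 members (52.9%) had an unadjusted p below 0.05, against 7.56% of all genes at that p. Phospho1 (male minus female -1.18 ± 0.24 (SE), adjusted p = 0.068) and Sp7 (-1.39 ± 0.29 (SE), adjusted p = 0.068) came nearest. DESeq2 called both, with adjusted p-values of 0.00701 and 0.00887, and edgeR called 1 or both when any of 11 single libraries was left out, among them WT male PBS replicate 2 and WT female leptin replicate 1. Fgf23 had a difference of opposite sign, 1.87 ± 0.55 (SE), adjusted p = 0.311.

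In cKO males, none of the 34 members was a DEG with leptin (3 members, and 7.64% of all genes, at an unadjusted p below 0.05), against 0.296% of all genes. Each of the 34 fold changes was negative, with a median of -0.29. Of the 9 cKO males, 3 were mice of the 100s, 2 of them in the PBS group and 1 in the leptin group. Their Col1a1 values were 1310.2 to 2859 TPM, whereas the other 6 cKO males were at 282 to 679.7 TPM. All 3 lay above all 6 others in 25 of the 34 members (73.5%), against 5294 of all 14873 genes (35.6%). Without them, 16 members had a positive and 18 a negative fold change, and none was a DEG. What sets these 3 mice apart was not tested.

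**Figure D2:**
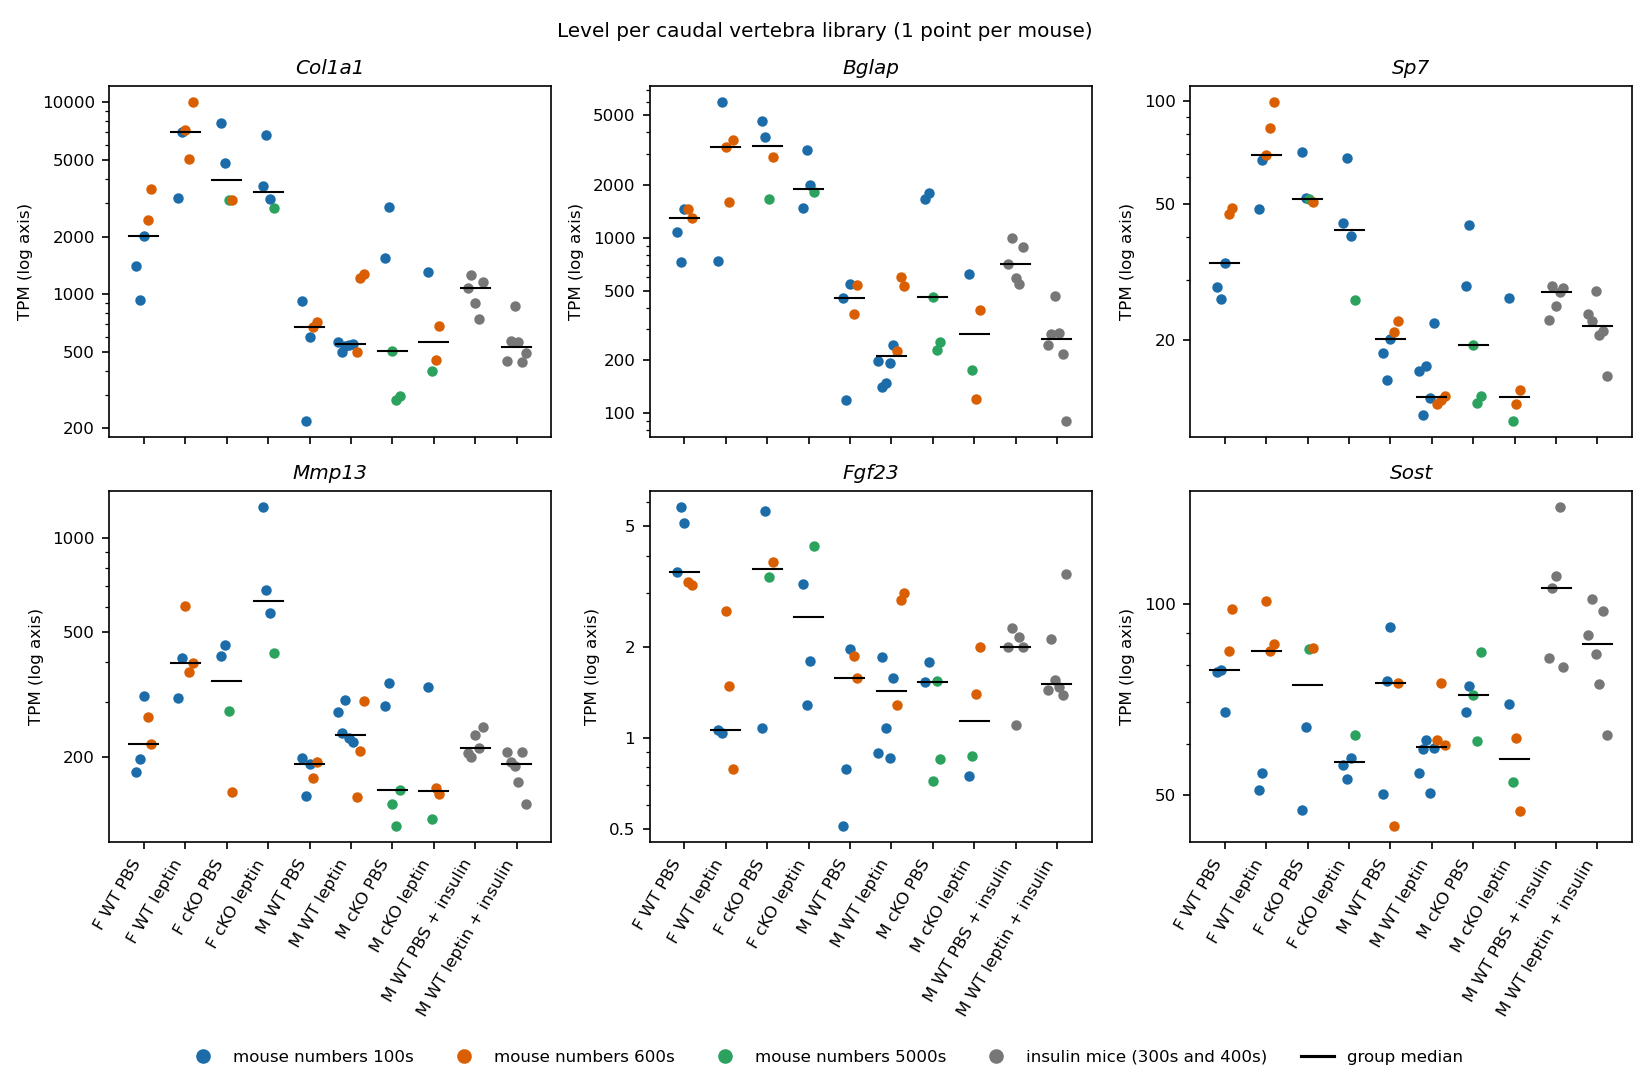
TPM on a log axis in each CV library for 6 members, by group, with points coloured by mouse number range and a bar at the group median. In Col1a1 and Sp7, WT females with leptin lie above most WT females with PBS, Fgf23 does the opposite, and the blue points of the male cKO groups lie above the others of those groups in Col1a1, Bglap, Sp7 and Mmp13.

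Across sex and treatment, the genotype comparison in CV gave 0 DEGs of the 34 with edgeR, against 0.329% of all genes, with 9 members (26.5%) at an unadjusted p below 0.05, against 15.0% of all genes at that p. Of the 34, 28 had higher fitted levels in cKO, with a median log2 fold change of 0.17. Spp1 passed the p-value and not the fold, at 0.40 ± 0.09 (SE), adjusted p = 0.0138. Bglap at 0.58 ± 0.25 (SE), adjusted p = 0.259, and Ibsp at 0.36 ± 0.12 (SE), adjusted p = 0.159, did not pass. Without the 3 male cKO mice of the 100s, described above, 20 of the 34 were higher and none was a DEG. With the mouse number range as a covariate, Ibsp was called at 0.64 (adjusted p = 0.0232). Acp5, 1 of the 10 osteoclast markers, was higher in cKO (0.87 ± 0.22 (SE), adjusted p = 0.0354).

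Insulin was compared in WT males. With PBS in both arms, none of the 34 members and 0.0% of all genes was a DEG with edgeR, whereas 7 members (20.6%) and 708 genes (4.76%) had an unadjusted p below 0.05. Of the 34 fold changes, 33 were positive, with a median of 0.36 against -0.002 for all genes, and the TPM of the groups did not overlap in 10 members, each higher with insulin, against 4.27% of all genes. For Alpl, insulin mice were at 68.0, 76.5, 86.5, 88.5 and 90.4 TPM and PBS mice at 43.8, 54.7, 56.0, 58.8 and 62.2 TPM, with a log2 fold change of 0.47 ± 0.20 (SE), adjusted p = 0.944. For Sp7 the values were 22.9, 25.1, 27.7, 28.3 and 28.7 TPM and 15.3, 18.3, 20.2, 21.1 and 22.7 TPM, a log2 fold change of 0.36 ± 0.22 (SE), adjusted p = 0.944. For Sost they were 79.4, 82.1, 106, 111 and 142 TPM and 44.6, 50.1, 75.0, 75.5 and 91.7 TPM, overlapping, with a log2 fold change of 0.53 ± 0.17 (SE), adjusted p = 0.944. The summed TPM of the 34 members was 12600 to 14700 with insulin and 6300 to 11800 without it. Markers of other cells moved beside it: the chondrocyte sum was 1300 to 1760 TPM with insulin and 890 to 1190 TPM without, with no overlap, and the muscle sum 35200 to 50100 TPM (median 38700) with insulin and 49100 to 60700 TPM (median 54300) without. Their part in the values of the bone genes was not tested. Since insulin mice carry numbers of their own range, insulin and range cannot be told apart in these values. The part of age in these values was not tested either.

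With leptin in both arms, insulin gave 0 called members with edgeR (9 members, and 15.7% of all genes, at an unadjusted p below 0.05), against 0.424% of all genes, and 19 fold changes were positive. Sost came nearest at 0.50 ± 0.15 (SE), adjusted p = 0.0784, and DESeq2 called it (adjusted p = 0.0395). Without leptin with insulin replicate 6, edgeR called 3 members, Sost, Tnfsf11 and Dkk1; that mouse had Tnfsf11 at 14.7 TPM and Fgf23 at 3.48 TPM. Within insulin-treated males, leptin against PBS gave 0 called members (8 members, and 14.0% of all genes, at an unadjusted p below 0.05), against 0.383% of all genes, with 32 of 34 fold changes negative and a median of -0.27. Col1a1 was at 744, 900.1, 1076, 1160.1 and 1257 TPM with PBS and insulin and 446 to 864 TPM with a median of 528 with leptin and insulin, a log2 fold change of -0.82 ± 0.41 (SE), adjusted p = 0.358. Bglap was at 546, 588, 713, 884 and 1001 TPM and 90.0 to 463 TPM with a median of 264, without overlap and with -1.44 ± 0.48 (SE), adjusted p = 0.141. Sparc (2047 to 3110 TPM and 1461 to 1871 TPM) and Cthrc1 (9.23 to 16.83 TPM and 4.34 to 8.74 TPM) did not overlap either. The share of all genes without overlap was not counted for this comparison. The interaction of insulin with leptin called none of the 34 (3 members, and 7.98% of all genes, at an unadjusted p below 0.05), against 0.00672% of all genes. The insulin comparisons share their PBS or leptin groups with the other male comparisons. Among insulin mice, those numbered in the 400s were all in the leptin arm, so leptin and number range are partly mixed there.

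Sex gave the most called members of the comparisons within CV. Averaged over genotype and treatment without insulin, 22 of the 34 members were DEGs and all 22 were lower in males, against 13.4% of all genes (7.06% lower in males). The median log2 fold change, male against female, was -0.77 against 0.0 for all genes. Of the matrix genes 6 of 8, of the mineralisation genes 7 of 8, of the transcription factors 3 of 4, of the osteocyte genes 3 of 6 and of the signalling genes 3 of 8 were lower. Col1a1 fell by 2.18 ± 0.23 (SE) on the log2 scale from females to males (adjusted p = 4.25e-11), Bglap by 2.16 ± 0.26 (adjusted p = 1.96e-09), Sp7 by 1.25 ± 0.11 (adjusted p = 8.43e-13) and Runx2 by 0.81 ± 0.07 (adjusted p = 5.14e-13). Runx2 was at 10, 10.2, 10.3, 12.3 and 13.0 TPM in WT males with PBS, below each of the 5 WT females with PBS.

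Among the osteocyte genes, Dmp1 (-1.43 ± 0.17 (SE)), Phex (-1.08 ± 0.11 (SE)) and Fgf23 (-0.76 ± 0.21 (SE)) were lower in males, whereas Sost had 0.11 ± 0.09 (SE), adjusted p = 0.29, and Mepe 0.16 ± 0.14 (SE), adjusted p = 0.36. In WT males with PBS, Dmp1 was at 17.0, 23.7, 28.1, 55.1 and 61.6 TPM and Sost at 44.6, 50.1, 75.0, 75.5 and 91.7 TPM. Pdpn (0.32 ± 0.09 (SE), adjusted p = 0.00155), Omd (0.34 ± 0.12 (SE), adjusted p = 0.0108) and Tnfrsf11b (0.50 ± 0.09 (SE), adjusted p = 3.47e-06) had higher levels in males past the p-value and short of the fold. On TPM with limma these were 0.09, 0.12 and 0.26, and Sost and Mepe changed sign, to -0.13 and -0.08, none of them a DEG. Dlx5 (-0.48 ± 0.07 (SE), adjusted p = 3.41e-07) and Postn (-0.31 ± 0.12 (SE), adjusted p = 0.0284) had lower levels that were likewise short of the fold. Spp1, Tnfsf11, Notum (a Wnt deacylase), Dkk1 and Wnt16 were not DEGs either.

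The sexes also differed in markers of other cells. All 10 osteoclast markers were lower in males, with a median of -2.01, and their summed TPM was 1120 to 12600 over the female groups and 390 to 2120 over the male groups. Of 10 muscle markers 7 were higher in males, with summed TPM of 18600 to 51200 in females and 26700 to 79700 in males. Lower in males were also 4 of 18 collagen processing genes, 5 of 12 other bone matrix genes, 3 of 10 other osteogenic factors (among them Dlx3 -1.71 and Dlx6 -0.70), 5 of 19 Wnt genes (Lrp4 -1.31, a sclerostin-binding receptor, among them) and Vdr, the vitamin D receptor, of 6 phosphate genes. Of the other lists, 2 of 8 neutrophil markers were lower, and 2 of 7 tendon, 1 of 9 adipocyte, 1 of 10 chondrocyte and 1 of 6 erythroid markers were higher. Their part in the sex difference was not tested. On TPM, the split of all genes became 195 higher and 1713 lower in males, in place of 937 and 1050, the median of all genes shifted to -0.195, and 25 members were lower.

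In LV, leptin gave no called member. Averaged over the genotypes, 0 of the 34 were DEGs with edgeR (3 members, and 21.3% of all genes, at an unadjusted p below 0.05), against 0.955% of all genes, and 29 fold changes were positive with a median of 0.18. The members with the smallest p were osteocyte genes with lower levels. Sost was at 8.45, 8.63, 11.4, 12.3 and 12.7 TPM in WT females with PBS and 5.61, 6.01, 6.60, 8.00 and 12.7 TPM with leptin, and at 7.32, 7.42, 8.00 and 9.27 TPM and 5.39, 5.71, 6.29 and 7.66 TPM in cKO, with an average log2 fold change of -0.52 ± 0.15 (SE), adjusted p = 0.0509. Fgf23 was at 0.39, 0.40, 0.49, 0.70 and 0.95 TPM and 0.23, 0.24, 0.29, 0.43 and 0.61 TPM in WT and at 0.35, 0.51, 0.61 and 0.65 TPM and 0.25, 0.29, 0.32 and 0.42 TPM in cKO, -0.81 ± 0.24 (SE), adjusted p = 0.0575. The groups overlapped for both genes in both genotypes. DESeq2 called Sost (adjusted p = 0.0115), and with the mouse number range as a covariate edgeR called Sost (adjusted p = 0.0133) and Fgf23 (adjusted p = 0.0351). Leaving out single libraries added Sost without cKO PBS replicate 1 or 3, WT PBS replicate 3 or WT leptin replicate 4, and Fgf23 without WT leptin replicate 2.

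Within the LV strata there were 0 called members in WT, against 0.0% of all genes, and 0 in cKO, against 0.0605% of all genes (4 and 2 members, and 10.9% and 13.1% of all genes, at an unadjusted p below 0.05). Col1a1 was at 311 to 872 TPM with a median of 525 TPM in the 5 WT LV with PBS and at 585, 660.0, 697, 875 and 1233 TPM with leptin, a log2 fold change of 0.54 ± 0.33 (SE), adjusted p = 0.576. Alpl was at 26.7, 36.8, 40.4, 42.2 and 58.4 TPM and 44.4, 49.8, 51.1, 55.4 and 70.9 TPM, with 0.36 ± 0.16 (SE), adjusted p = 0.429. The genotype comparison in LV called none of the 34 (6 members, and 4.29% of all genes, at an unadjusted p below 0.05), against 0.0202% of all genes; Dmp1 was at 0.65 ± 0.17 (SE), adjusted p = 0.517, and Omd at 0.51 ± 0.12 (SE), adjusted p = 0.366, which DESeq2 called (adjusted p = 0.0471).

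**Figure D3:**
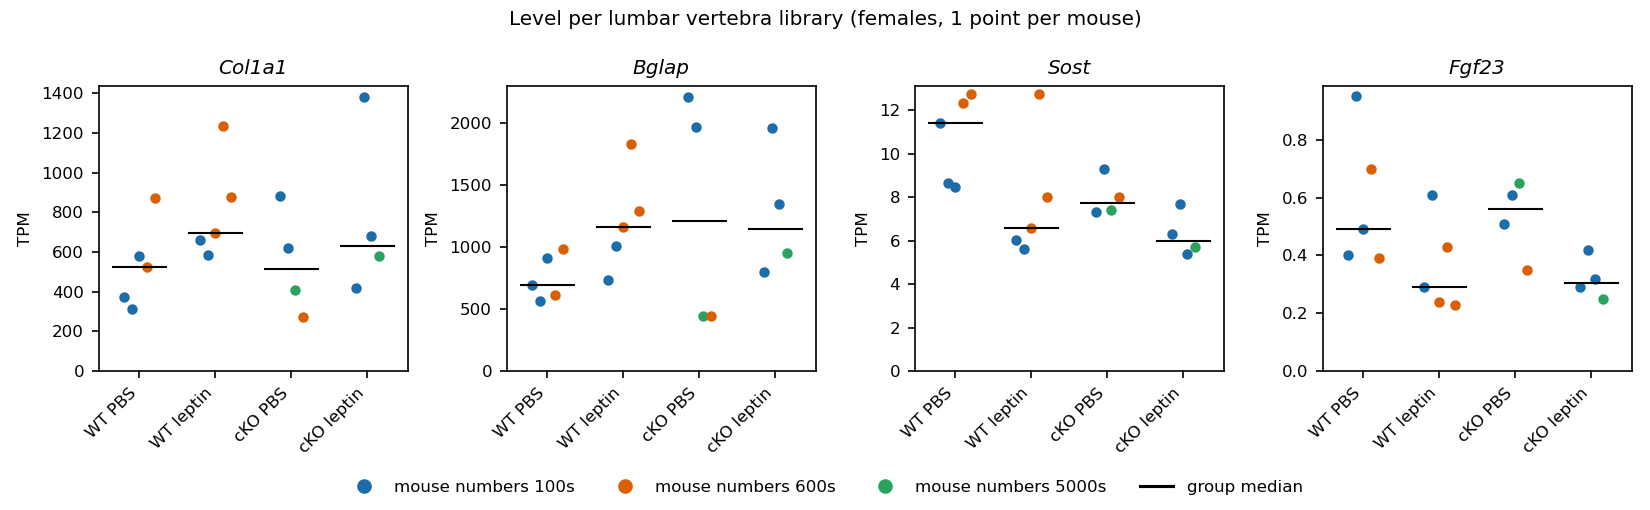
TPM in each LV library of the 18 females for 4 members, by group, with points coloured by mouse number range and a bar at the group median. Leptin and PBS mice overlap in each panel and genotype, and the medians of Sost and Fgf23 are lower with leptin in both genotypes.

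Whether leptin acted differently in CV and LV of females was tested directly. 1 of the 34 members passed, against 3.68% of all genes. It was Mmp13, whose leptin effect was larger in CV by 0.87 ± 0.26 (SE), adjusted p = 0.0345. Its LV values were 133, 142, 160.8, 216 and 218 TPM and 179.8, 180.1, 185.3, 193 and 198 TPM in WT and 129, 209, 236 and 256 TPM and 195, 228, 289 and 379 TPM in cKO, overlapping. The call was lost in 9 of 18 fits that left out 1 mouse (cKO leptin replicates 1 and 3, WT leptin replicates 2, 4 and 5, WT PBS replicates 1, 2 and 5, and cKO PBS replicate 3), and on TPM with limma, where the difference was 0.73. For Col1a1 the difference was 0.35 ± 0.39 (SE), adjusted p = 0.678, and for Fgf23 -0.16 ± 0.42 (SE), adjusted p = 0.879.

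Between the bones themselves, most members were higher in CV. In WT females with PBS, 24 of the 34 were DEGs with higher and 3 with lower values in CV than in LV, against 66.3% of all genes (34.4% higher and 32.0% lower). The 6 osteocyte genes were all higher in CV. Sost was at 67.4 to 98.0 TPM in CV and 8.45 to 12.7 TPM in LV, with a log2 difference of 1.78 ± 0.20 (SE), adjusted p = 6.47e-10. Pdpn (2.47 ± 0.24 (SE)) and Fgf23 (1.82 ± 0.38 (SE)) had larger log2 differences, and Dmp1, Phex and Mepe were higher by 1.00, 0.82 and 0.81. The 4 transcription factors were higher too, from Runx2 at 0.53 ± 0.11 (SE) to Dlx5 at 1.36 ± 0.21 (SE).

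Several secreted signals differed by more than 2 on the log2 scale. Wnt16, a cortical bone Wnt ligand, was higher in CV by 3.73 ± 0.42 (SE), adjusted p = 1.33e-09, Bmp8a by 2.42 ± 0.28 (SE), adjusted p = 3.21e-09, and Notum by 2.16 ± 0.36 (SE), adjusted p = 2.29e-06. Wnt16 lay near the floor in LV, at 0.06 to 0.66 TPM over all LV libraries, and its difference was 2.64 to 4.46 under the alternatives. Pth1r (1.28 ± 0.13 (SE)), Tnfrsf11b (1.22 ± 0.19 (SE)) and Dkk1 (0.85 ± 0.22 (SE)) were also higher. Of the matrix genes 6 of 8 were higher, Postn most (1.49 ± 0.23 (SE)). Of the mineralisation genes, 2 of 8 were higher (Ibsp 0.80 and Spp1 0.76) and the list had a median of -0.06. Bglap at -0.57 ± 0.43 (SE), adjusted p = 0.222, and Alpl at 0.39 ± 0.18 (SE), adjusted p = 0.0399, short of the fold, were not DEGs. The 3 lower members were Cthrc1 (-1.24 ± 0.43 (SE), adjusted p = 0.0102), Bglap2 (-0.92 ± 0.38 (SE), adjusted p = 0.0253) and Mmp13 (-0.67 ± 0.24 (SE), adjusted p = 0.0127).

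Marrow markers and the scale of the values bear on this comparison. The summed TPM of 8 neutrophil markers was 859 to 13000 in CV and 126000 to 255000 in LV, and of 6 erythroid markers 8.69 to 179 and 2950 to 7150. On TPM with limma the median of all genes shifted by 0.873 toward CV, all genes split into 9844 higher and 1557 lower in place of 5114 and 4753, and 29 members were higher and 0 lower. On that scale Bglap2 was at 0.31 and Mmp13 at 0.44, of opposite sign to the values above, and Cthrc1 at -0.07. With the mouse as a block, 24 members were higher and 4 lower: Col24a1 (0.58) and Ifitm5 (-0.57) were added and Omd (0.44) was dropped.

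Other lists also differed between the bones. Higher in CV were 12 of 12 other bone matrix genes, 12 of 18 collagen processing genes, 16 of 19 Wnt genes, 7 of 10 other osteogenic factors and 4 of 6 phosphate genes, with 1 gene lower in each of the last 4 (Ppib, Lef1, Atf4 and Slc20a1). Adipocyte (9 of 9), chondrocyte (10 of 10), tendon (7 of 7), muscle (9 of 10), stromal (4 of 5) and keratinocyte (1 of 3) markers were higher in CV. Osteoclast (8 of 10), neutrophil (8 of 8), erythroid (6 of 6) and B cell (7 of 8) markers were lower. The part of these cells in the differences of the bone genes was not tested.

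**Figure D4:**
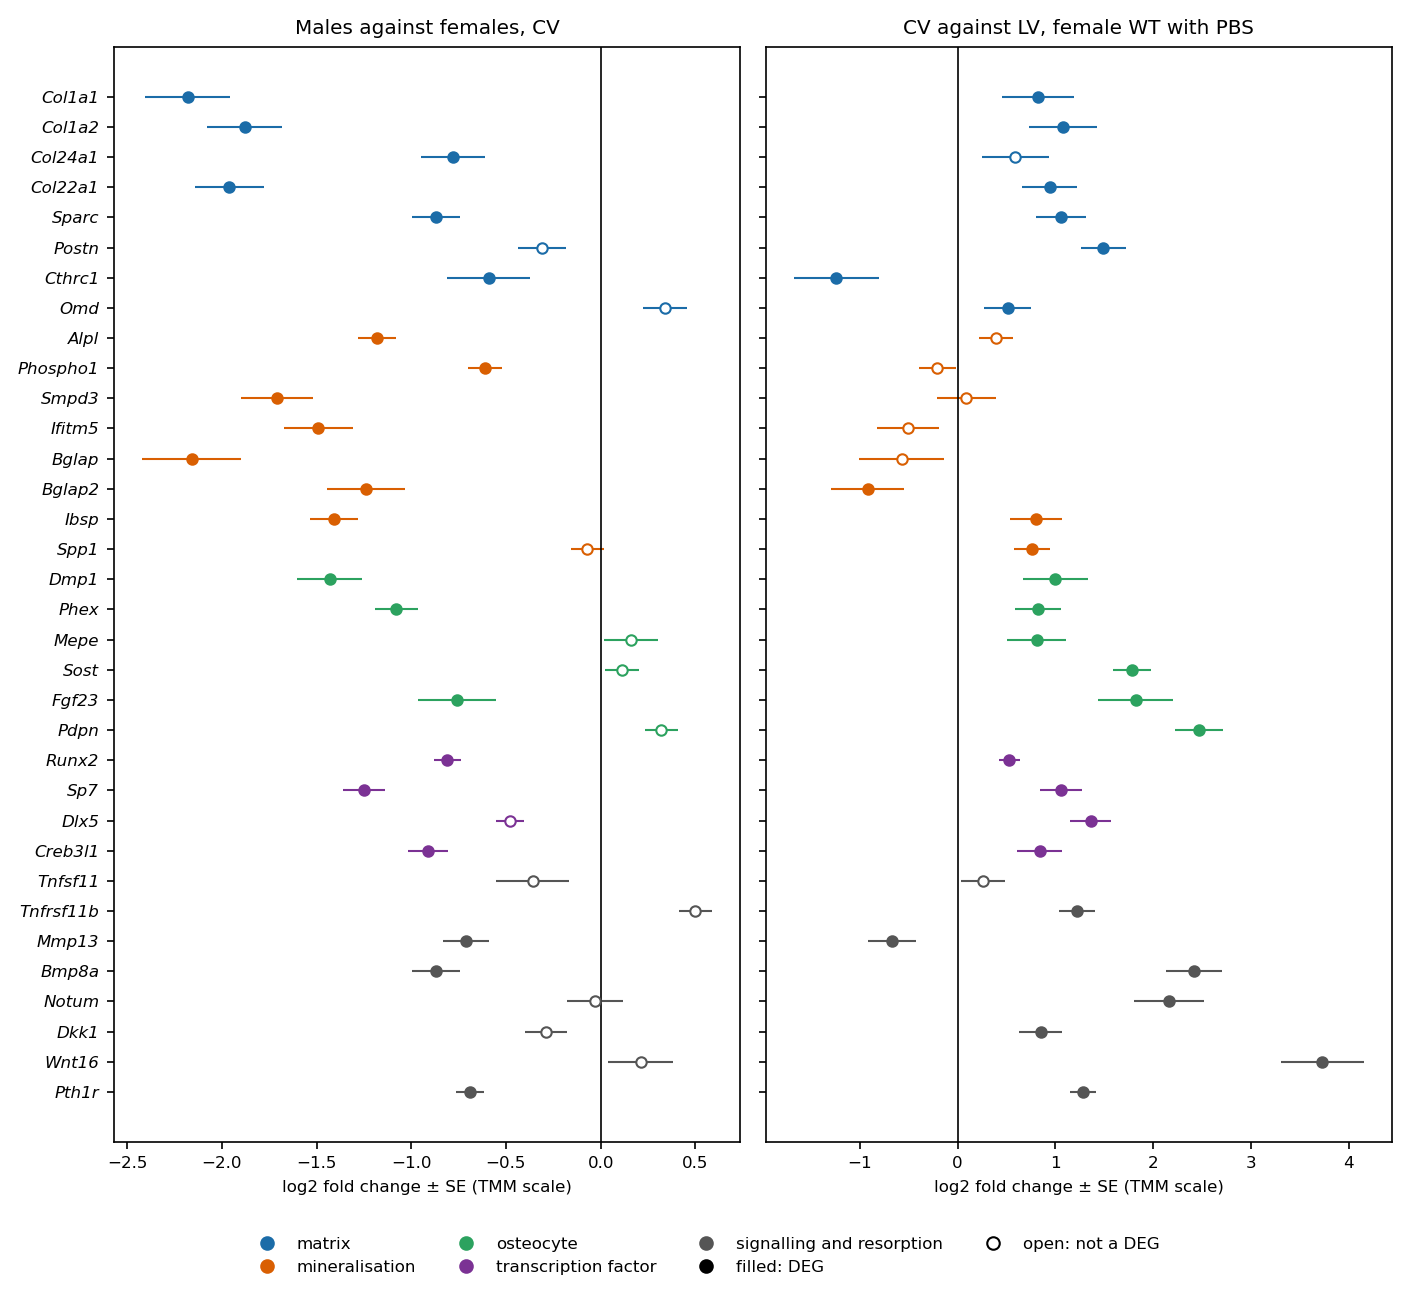
Log2 fold changes with SE on the TMM scale for the 34 genes, coloured by role, with filled points for DEGs: males against females in CV (left) and CV against LV in WT females with PBS (right). Most matrix, mineralisation and transcription factor genes lie left of 0 in males, Sost and Mepe lie near 0, and Wnt16 at 3.73 is the farthest point toward CV.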

How the data were processed

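RNA-seq of CV, LV and iWAT was analysed from the deposited gene tables. The authors enriched mRNA with oligo dT, sequenced paired 100-base reads on DNBSEQ, filtered them with SOAPnuke and mapped them with HISAT and Bowtie2 (per the labels, on GRCm38.p6, with GRCm39 also listed). The counting tool is not given in the sources used here. The deposited estimated counts (51 values in 6 genes not whole) were rounded, and the deposited TPM values, scaled by the authors for transcript length and library, were used as they stand. Of 74693 features, 39063 had a numeric gene identifier, the others held 0.0% of counts, and 14873 genes with a mean TPM of at least 0.4 were tested. Depth was 16100377 to 19364106 counts in CV and 28717516 to 29757254 in LV. No pair of replicates agreed within sampling noise (lowest chi-square per gene 11.4).

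Fits used edgeR 4.0.16 (quasi-likelihood, TMM, Benjamini-Hochberg over the 14873 genes) in R 4.3.3, with the 51 CV libraries in 1 fit, the 18 LV libraries in another, and the 36 female CV and LV libraries in another for differences between the bones. All p-values are two-sided. On simulated counts for the average leptin effect in CV, 200 of 200 changed genes were recovered, and 10 of the 210 called genes were false. The changed genes were well expressed, with a single large fold change and the same dispersion for all genes. Recovery of smaller changes, or in genes as variable as Col1a1 and Bglap, was therefore not tested. Alternatives were DESeq2 1.42.0, limma 3.58.1 on log2(TPM + 1) and log2(TPM + 0.1), RLE size factors, other filters, no fold threshold, the replicate number or the mouse as a block, number range as a covariate, each stratum alone and leaving out each mouse. Leaving out a mouse removed its 1 library in the CV fit or the LV fit, and both its libraries in the fit of CV and LV. CV and LV samples of 1 mouse are paired by that mouse (correlation of deviations 0.04 to 0.37 in 18 mice), so a fit with the mouse as a block was the alternative there. The CV and LV values reported come from the fit without the block unless the block is named.

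Values by library are given for Col1a1, Bglap, Alpl, Runx2, Sp7, Dmp1 and Sost, and for the 12 members with the smallest adjusted p among the 14 that are DEGs in an averaged leptin, insulin or genotype comparison or a leptin stratum. Other genes, such as Tnfsf11, Spp1 and Ibsp, were named after their values were seen. The members and lists were chosen with earlier results of these data known. Promoters are RefSeq sequences on GRCm38.p6.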

Additional observations from a re-analysis of the deposited data

Results flagged for a closer look

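Over the 16 genes with values by library, 224 groups of 4 to 8 samples were examined for 1 sample far from the rest of its group, and 16 were found. Chance alone gives about 1 in 20. In cKO males, leptin replicate 1, 1 of the 3 mice numbered in the 100s, was the highest of its group for Alpl (97.9 TPM, next 52.0), Mmp13 (334.6 TPM, next 159) and Creb3l1 (31.2 TPM, next 21.1). In WT males with leptin and insulin, replicate 3 was highest for Col1a1 (864 TPM, next 568.2) and Runx2 (14.9 TPM, next 12.5), and replicate 6 for Fgf23 (3.48 TPM, next 2.12). In WT males with PBS and insulin, replicate 3 was lowest for Fgf23 (1.10 TPM, next 1.99) and replicate 5 highest for Dlx5 (34.6 TPM, next 27.1).

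Among WT males, leptin replicate 5 was highest for Sp7 (22.4 TPM, next 16.8), leptin replicate 7 for Sost (74.9 TPM, next 60.9), and PBS replicate 2 was lowest for Smpd3 (3.04 TPM, next 6.51). Among cKO females, PBS replicate 1 was highest for Sp7 in CV (70.9 TPM, next 51.8). In LV, cKO leptin replicate 2 was highest for Alpl (70.1 TPM, next 46.5) and Phospho1 (56.8 TPM, next 42.9), WT PBS replicate 5 for Phospho1 (52.2 TPM, next 44.9) and WT leptin replicate 4 for Smpd3 (19.2 TPM, next 10.6).

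The leptin effect on Mmp13 in females differed between CV and LV by 0.87 on the log2 scale (adjusted p = 0.0345, edgeR), with the larger effect in CV. The call held in 9 of 18 fits that left out 1 mouse, and 3.68% of all genes passed this test.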

How the results depend on the processing

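The 34 members were counted as DEGs under each alternative. For leptin in CV of WT females the count ran from 10 to 16. Cthrc1 kept its call in 7 of 10 alternatives, Col22a1 and Ibsp in 8, and the other called members in 9 or 10. Without a fold threshold the average leptin effect in CV held 3 members and the CV genotype effect 1 (Spp1). DESeq2 gave 1 for leptin in WT males (Tnfsf11), 1 for insulin with leptin (Sost), 2 for the sex difference in the leptin effect (Phospho1 and Sp7), 1 for leptin in LV (Sost) and 1 for the LV genotype effect (Omd). The number range covariate gave 1 for the CV genotype effect (Ibsp) and 2 for leptin in LV. Each stratum alone gave 0 in cKO females, and limma on TPM, with either pseudocount, 0 for the difference between CV and LV in the leptin effect. Without the 3 male cKO mice of the 100s, an alternative chosen after seeing the data, the average leptin effect held 2 (Col1a1 and Mmp13). On limma TPM the CV against LV values of Bglap2 (0.31 and 0.31) and Mmp13 (0.44 and 0.44) reversed. The cause of these changes was not tested, apart from the shift of all genes on TPM.

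The replicate numbers do not pair PBS with leptin mice, which are different animals (correlations -0.42 to 0.47, median 0.04, over 32 pairs). With the replicate number as a block, the average leptin effect held 2 members (Fgf23 and Mmp13) and leptin in LV 2 (Sost and Fgf23); counts of called members for other leptin comparisons stayed within 1.5 times.

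Leaving out single mice gave 0 to 2 called members for average leptin in CV, 7 to 18 in WT females, 0 to 1 in WT males, 0 to 2 in cKO females, 0 to 3 for insulin with leptin, 0 to 2 for the sex difference, 0 to 1 for leptin in LV and 0 to 1 for the CV and LV difference. For sex it was 21 to 24 and for CV against LV 22 to 27.

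Counts over all genes varied more: 418 to 4298 for average leptin in CV (816 as reported), up to 1515 in WT females (824; 394 higher and 293 lower on limma log2(TPM + 1), the lowest), up to 690 in WT males (418; 94 higher and 73 lower with the replicate block, the lowest), 4 to 841 in cKO females (507), 17 to 73 in cKO males (44), 32 to 128 for leptin with insulin (57), 24 to 146 for insulin with leptin (63), 43 to 721 for leptin in LV (142) and 1823 to 8838 for sex (1987). Leaving out single libraries gave 505 to 962 in WT females, 249 to 461 in WT males, 141 to 1064 in cKO females, 9 to 121 for leptin with insulin and 17 to 173 for insulin with leptin. On limma log2(TPM + 1), the all-gene DEGs split into 68 higher and 377 lower in place of 196 and 311 in cKO females, 6 and 31 in place of 18 and 39 for leptin with insulin, 13 and 13 in place of 25 and 38 for insulin with leptin, 11 and 15 in place of 30 and 19 for genotype in CV, 33 and 10 in place of 71 and 71 for leptin in LV and 164 and 319 for the CV and LV difference, in place of 369 higher among 547. In WT males log2(TPM + 0.1) gave 210 higher and 96 lower in place of 245 and 173. Fgf23 and Wnt16 in LV, under 1 TPM, are limited by depth.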
